A study of Mus musculus with 18 samples.

Results

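Angiomotin, the LATS kinases, YAP, TEAD1 and their target genes were followed in mouse embryonic fibroblasts (MEF cells), with and without heat. The cells received a scrambled RNA or a knockdown of HSF1 or SSBP1. The 10 genes were Amotl2, Amotl1 and Amot (the angiomotin family), Lats1 and Lats2 (kinases), Yap1 and Tead1 (coactivator and DNA-binding partner), and Ccn1, Ccn2 and Ankrd1 (target genes), out of 19938 gene symbols read on the arrays. They were selected on the heat response of Amotl2 in scrambled RNA-treated and HSF1-knockdown cells, and each was read from its brightest probe set annotated with exactly 1 symbol. All 10 were measured. The values of Amotl2 in those cells are therefore given as a description, without a test.

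All cells were immortalized MEF cells of ICR background, infected for 2 h with an adenovirus that expressed a short hairpin RNA and kept in normal medium for 70 h. The hairpin was a scrambled RNA (SCR), an RNA against HSF1 (HSF1-KD) or an RNA against SSBP1 (SSBP1-KD), and cells were left at 37 °C (Cont) or placed at 42 °C for 1 h (HS). The 6 groups held 3 arrays each, 18 in all, and the shared fibroblast line, virus and medium were common to every group. The arrays used 1 hairpin per target, and separate cultures are not stated for the arrays of a group, so p-values measure the spread between these arrays, which may be technical. In bulk RNA, fewer cells of a type and less RNA per cell cannot be told apart.

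The Hippo pathway is a kinase cascade that ends in LATS1 and LATS2, which phosphorylate the coactivator YAP and keep it in the cytoplasm. YAP that is not phosphorylated enters the nucleus, binds TEAD proteins and switches on genes such as Ccn1, Ccn2, Ankrd1 and Amotl2. Angiomotins are junction and actin-binding proteins that hold YAP outside the nucleus and also promote LATS activity, so several targets of YAP act back on it. HSF1 is the main transcription factor of the heat shock response, and SSBP1 is the single-stranded DNA-binding protein of mitochondria.

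The heat shock gene Hspa1a, which encodes HSP70, rose by 4.31 (log2) in SCR cells, 0.55 in HSF1-KD cells and 3.42 in SSBP1-KD cells. Ssbp1 itself read 9.36 to 9.54 (log2 signal) in SCR Cont and 9.02 to 9.32 in SSBP1-KD Cont, a difference of -0.22 ± 0.08 (SE, limma adjusted p = 0.0555). After heat shock the ranges were 9.03 to 9.09 and 8.57 to 8.71 (difference -0.41, adjusted p = 0.00155). Hsf1 was not analysed here. Fibroblast markers averaged 10.4 to 11.0 over 10 genes, against 7.72 to 7.97 for 6 epithelial, 7.11 to 7.43 for 4 endothelial, 7.44 to 7.67 for 4 muscle and 7.21 to 7.71 for 3 blood cell markers. Single genes departed from these averages. By group means, the fibroblast markers Lum (4.99 to 5.29) and Thy1 (7.78 to 8.01) were low. The blood marker Cd68 (9.35 to 10.16) and the epithelial marker Krt8 (8.86 to 8.99) were high. SSBP1-KD Cont replicate 1 lay farthest from its group over all symbols (mean absolute residual 0.105 log2, other arrays 0.0505 to 0.0734), and SCR Cont replicate 3 did so over the 10 genes (0.0798, others 0.0222 to 0.0714).

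Promoter sequence was searched for the letters that TEAD proteins and HSF1 are known to prefer. Several of these genes are known TEAD targets, and HSF1 was targeted for knockdown in some of the cells. RefSeq (GRCm38.p6) gave 9 windows of 250 bases upstream of a start for 8 of the 10 genes. Ccn2 and Tead1 were not searched. The TEAD letters GGAATG, on either strand, were found in the windows of 4 genes, Amotl2, Ankrd1, Ccn1 and Yap1, and in 12.64% of all 32851 windows. The Ccn1 and Ankrd1 windows are shown whole, as the target genes with both kinds of match, and Amotl2 by the stretch around its match; capitals mark the matches, and each runs 5′ to 3′ on the gene's strand.
Ccn1, chr3:145649986-145650235, minus strand: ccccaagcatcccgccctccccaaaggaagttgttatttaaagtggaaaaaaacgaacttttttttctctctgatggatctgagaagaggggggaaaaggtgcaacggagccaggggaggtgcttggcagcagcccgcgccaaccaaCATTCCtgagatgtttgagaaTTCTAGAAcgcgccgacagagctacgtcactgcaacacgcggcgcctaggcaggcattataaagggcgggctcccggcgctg
Ankrd1, chr19:36119845-36120094, minus strand: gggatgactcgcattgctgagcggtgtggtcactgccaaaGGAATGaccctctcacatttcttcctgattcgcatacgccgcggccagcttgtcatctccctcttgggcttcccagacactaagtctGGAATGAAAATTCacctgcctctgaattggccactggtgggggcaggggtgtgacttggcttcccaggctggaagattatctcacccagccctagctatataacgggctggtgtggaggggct
Amotl2, chr9:102717727-102717756, plus strand: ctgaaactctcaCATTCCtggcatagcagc

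In Ccn1 the TEAD letters lie 103 to 98 bases before the start. They are followed at 82 to 75 by TTCNNGAA, a heat shock element of 2 units tail to tail, which 7.166% of all windows hold. Ankrd1 holds the TEAD letters at 210 to 205 and 123 to 118, and GAANNTTC, 2 units head to head, at 118 to 111, so that these last matches share 1 base. GAANNTTC is held by 6.694% of windows. The Amotl2 match lies 65 to 60 bases before a start that is itself inside the annotated gene. Lats2 has TTCNNGAA in 1 of its 2 windows, at 69 to 62. That window lies wholly inside the annotated gene, and the other, which reaches beyond the gene's outer end, has no match. The 3-unit element, GAANNTTC followed directly by NNGAA (0.4657% of windows), the AP-1 letters TGANTCA (6.749%) and the SRF CArG box (1.467%) were found in no window of the 8 genes; both strands were read, and the 3-unit element contains the shorter forms. These are letter matches only, and binding was not measured.

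Amotl2, a junction scaffold that restrains YAP and is itself a YAP target, was the gene with the widest spread of group means, 1.02 on the log2 scale. Its highest group was SCR HS, which the choice of genes used, so this rank is a description only. In SCR cells Amotl2 read 10.86, 10.84 and 10.75 (log2 signal) at 37 °C and 11.43, 11.72 and 11.60 after heat shock. In HSF1-KD cells it read 10.62, 10.71 and 10.56, then 10.77, 10.72 and 10.68. In SSBP1-KD cells it read 10.69, 10.51 and 10.51, then 10.90, 10.90 and 10.96. Every heated SCR array stood above all other arrays, the heated SSBP1-KD arrays came next, and the other 4 groups overlapped with their neighbours in the order SCR Cont, HSF1-KD HS, HSF1-KD Cont and SSBP1-KD Cont. The heat effect was 0.77 ± 0.07 (log2, SE, n = 3 against 3; 1.70-fold) in SCR cells and 0.09 ± 0.07 in HSF1-KD cells, the contrast behind the choice of genes. In SSBP1-KD cells, which the choice did not use, Amotl2 rose by 0.35 ± 0.07 (1.27-fold, limma adjusted p = 0.00693). That call was lost in a fit of those 6 arrays alone (adjusted p = 0.0808). After heat shock Amotl2 was 0.86 lower in HSF1-KD than in SCR cells (difference -0.86) and 0.67 lower in SSBP1-KD cells (difference -0.67), and at 37 °C the differences were -0.19 and -0.25.

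Amotl1 and Amot, the other angiomotins, moved less. Amotl1 read 9.60, 9.65 and 9.56 in SCR Cont, and 9.67, 9.88 and 9.68 in SCR HS. It read 9.42, 9.42 and 9.30 in HSF1-KD Cont, and 9.42, 9.45 and 9.39 in HSF1-KD HS. It read 9.56, 9.54 and 9.50 in SSBP1-KD Cont, and 9.77, 9.68 and 9.67 in SSBP1-KD HS. The 6 HSF1-KD arrays were the lowest 6, and heated arrays stood above unheated ones of the same cells in SCR and SSBP1-KD but overlapped in HSF1-KD. Amotl1 was lower in HSF1-KD than in SCR cells at 37 °C (-0.22 ± 0.06, adjusted p = 0.0152) and after heat shock (-0.32 ± 0.06, adjusted p = 0.00103). The first of these calls was lost without SCR Cont replicate 2 (adjusted p = 0.0618) or HSF1-KD Cont replicate 3 (0.0733). Its heat effects, 0.14 in SCR (95% interval 0.02 to 0.26), 0.04 in HSF1-KD and 0.17 in SSBP1-KD cells, did not pass after adjustment (0.13, 0.701 and 0.0807).

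Amot lay between 9.07 and 9.22 in all 12 SCR and HSF1-KD arrays, and heat left it within -0.12 to 0.11 (log2, 95% interval) of its level in SCR cells. In SSBP1-KD cells it read 8.89, 8.88 and 9.03 at 37 °C and 9.15, 9.19 and 9.02 after heat shock. SSBP1-KD Cont was the lowest group, and its arrays overlapped those of heated SSBP1-KD cells. Amot was 0.26 lower there than in SCR Cont (difference -0.26 ± 0.05, adjusted p = 0.0022) and rose with heat by 0.19 ± 0.05 (adjusted p = 0.0409). The heat call was lost without any of 4 arrays, SSBP1-KD Cont replicates 1 and 2 (adjusted p = 0.106 and 0.134) and SSBP1-KD HS replicates 1 and 2 (0.132 and 0.155).

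**Figure D1:**
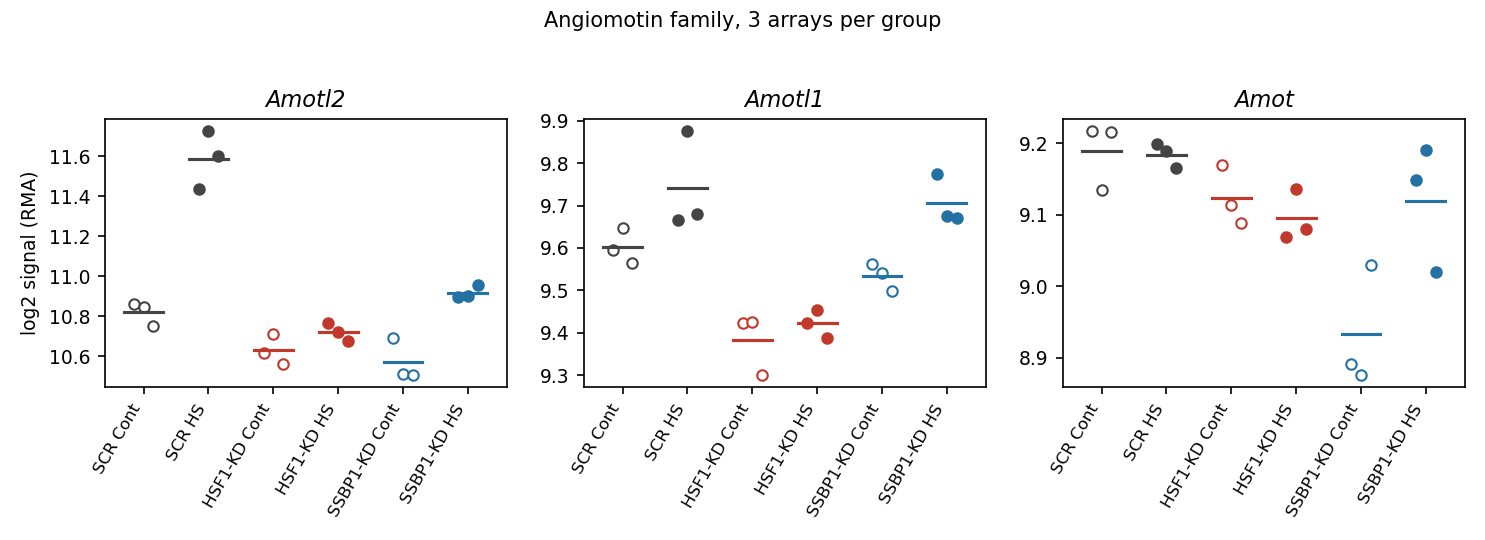
log2 signal (vertical axis) of Amotl2, Amotl1 and Amot on each of the 18 arrays, by group (horizontal axis). Open points are 37 °C arrays, filled points heated arrays and lines group means; the heated SCR arrays of Amotl2, 11.43 to 11.72, stand above all others, and each panel has its own scale.

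Among the 9 genes other than Amotl2, heat shock of SCR cells raised 6 and lowered none. Over all symbols 7.63% rose and 8.34% fell. The 6 were Ccn1, Ccn2, Lats1, Lats2, Yap1 and Tead1, and the median of the 9 heat effects was 0.20 (log2), beside -0.01 over all symbols. In HSF1-KD cells 4 rose (Lats1, Lats2, Yap1 and Tead1) and 2 fell (Ccn1 and Ccn2), beside 10.6% of symbols that rose and 10.8% that fell. In SSBP1-KD cells 3 of 10 rose, Amotl2, Amot and Yap1, and none fell, beside 4.08% and 2.82%. Without SCR Cont replicate 3, the count in SCR cells was 3 (Ccn1, Ccn2 and Yap1); without SSBP1-KD Cont replicate 1, that in SSBP1-KD cells was 2.

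**Figure D2:**
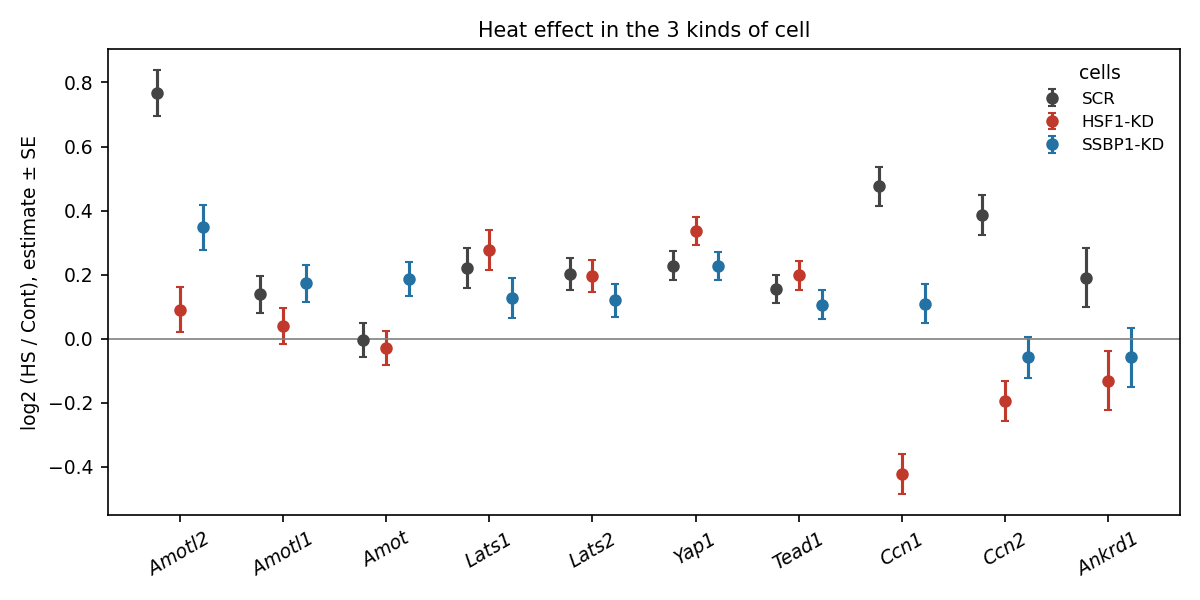
Heat effect, log2 of HS over Cont (vertical axis), of the 10 genes (horizontal axis) in SCR, HSF1-KD and SSBP1-KD cells; points are limma estimates and bars standard errors. Ccn1 was at 0.48 in SCR cells and -0.42 in HSF1-KD cells, whereas Lats1, Lats2, Yap1 and Tead1 were above 0 in all 3 kinds of cell.

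Ccn1 (older name Cyr61) and Ccn2 (older name Ctgf) encode secreted matrix proteins and are the most used readouts of YAP and TEAD. Ccn1 read 12.99, 12.98 and 12.90 in SCR Cont and 13.31, 13.53 and 13.46 in SCR HS. In HSF1-KD cells it read 12.96, 13.04 and 12.86, then 12.45, 12.54 and 12.61. In SSBP1-KD cells it read 12.87, 12.80 and 12.79, then 12.92, 12.89 and 12.97. Heated SCR arrays were the highest 3 of the 18 and heated HSF1-KD arrays the lowest 3, with no overlap with any other group. Ccn1 rose by 0.48 ± 0.06 with heat in SCR cells (1.39-fold, adjusted p = 9.07e-05) and fell by 0.42 on the log2 scale in HSF1-KD cells (adjusted p = 0.000255). In SSBP1-KD cells the heat effect was 0.11 ± 0.06 (adjusted p = 0.317).

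The heat response of Ccn1 itself differed between HSF1-KD and SCR cells, by -0.90 ± 0.09 (log2, 95% interval -1.08 to -0.71, adjusted p = 6.32e-05). Among the 9 genes, Ccn1 and Ccn2 had a lower heat response in HSF1-KD cells and none a higher one, beside 0.336% and 0.01% of all symbols. In SSBP1-KD cells 1 of 9, Ccn2, had a lower heat response and none a higher one, beside 0.311% and 0.181%. The difference of Ccn1 in SSBP1-KD cells was -0.37 ± 0.09 (95% interval -0.55 to -0.18, adjusted p = 0.105), and without SCR HS replicate 1 it was -0.43 and passed (0.0346). After heat shock Ccn1 stood 0.90 lower in HSF1-KD than in SCR cells (difference -0.90, 0.536-fold, adjusted p = 1.65e-07) and 0.50 lower in SSBP1-KD cells (difference -0.50, 0.706-fold, 3.32e-05). At 37 °C the differences were -0.00 (95% interval -0.13 to 0.13) and -0.14 (-0.27 to -0.01), with adjusted p = 0.984 and 0.127.

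Ccn2 differed from Ccn1 in where the knockdown cells stood before heating. It read 11.98, 12.10 and 11.79 in SCR Cont and 12.33, 12.40 and 12.29 in SCR HS. In HSF1-KD cells it read 12.41, 12.44 and 12.40, then 12.19, 12.24 and 12.24. In SSBP1-KD cells it read 12.40, 12.33 and 12.28, then 12.28, 12.26 and 12.29. The 3 SCR Cont arrays were the lowest of the 18, the heated HSF1-KD arrays were next, and the other 4 groups overlapped between 12.26 and 12.44. At 37 °C Ccn2 was 0.46 ± 0.06 higher in HSF1-KD than in SCR cells (1.37-fold, adjusted p = 0.000161) and 0.38 ± 0.06 higher in SSBP1-KD cells (1.30-fold, 0.00042).

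With heat Ccn2 rose by 0.39 ± 0.06 in SCR cells (adjusted p = 0.000666) and fell by 0.19 on the log2 scale in HSF1-KD cells (0.0429). In SSBP1-KD cells the heat effect was -0.06 ± 0.06 (95% interval -0.19 to 0.08). The response was lower than in SCR cells by -0.58 ± 0.09 in HSF1-KD (adjusted p = 0.00684) and by -0.44 ± 0.09 in SSBP1-KD cells (0.0462). After heat shock the knockdown cells differed from SCR cells by -0.12 and -0.06, which did not pass (0.248 and 0.573). The fall in HSF1-KD cells lost its call without any of the 6 arrays compared (adjusted p = 0.0774, 0.122 and 0.0791 without Cont replicates 1, 2 and 3, and 0.127, 0.0862 and 0.0781 without HS replicates 1, 2 and 3). The SSBP1-KD difference lost its call without any of 11 of the 12 arrays (adjusted p = 0.0909 and 0.0578 without SCR Cont replicates 1 and 3, 0.0671, 0.133 and 0.0836 without SCR HS replicates 1, 2 and 3, 0.0716, 0.0999 and 0.0623 without SSBP1-KD Cont replicates 1, 2 and 3, 0.12, 0.107 and 0.101 without SSBP1-KD HS replicates 1, 2 and 3).

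Ankrd1, a nuclear and sarcomeric ankyrin repeat protein induced by YAP, by stretch and by actin signals, took another order. It read 11.95, 11.92 and 11.50 in SCR Cont and 12.05, 11.92 and 11.98 in SCR HS. In HSF1-KD cells it read 11.77, 11.78 and 11.62, then 11.55, 11.67 and 11.55. In SSBP1-KD cells it read 12.09, 12.05 and 12.10, then 12.01, 12.04 and 12.02. SSBP1-KD Cont was the highest group and HSF1-KD HS the lowest, and SCR Cont replicate 3 stood well below the other SCR arrays. After heat shock Ankrd1 was lower in HSF1-KD than in SCR cells (-0.39 ± 0.09, 0.763-fold, adjusted p = 0.00751), with no overlap between their arrays.

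Heat effects on Ankrd1 were 0.19 in SCR (95% interval -0.01 to 0.39), -0.13 in HSF1-KD (-0.33 to 0.07) and -0.06 in SSBP1-KD cells (-0.26 to 0.14), and none passed. At 37 °C it was 0.29 ± 0.09 higher in SSBP1-KD than in SCR cells (adjusted p = 0.0336). Without SCR Cont replicate 3 that difference was 0.14 and did not pass (0.116), and the one between HSF1-KD and SCR cells went from -0.07 (0.686) to -0.22 and passed (0.0279). Leaving out SSBP1-KD Cont replicate 1, 2 or 3 also ended the SSBP1-KD call (0.0763, 0.0559 and 0.0727).

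**Figure D3:**
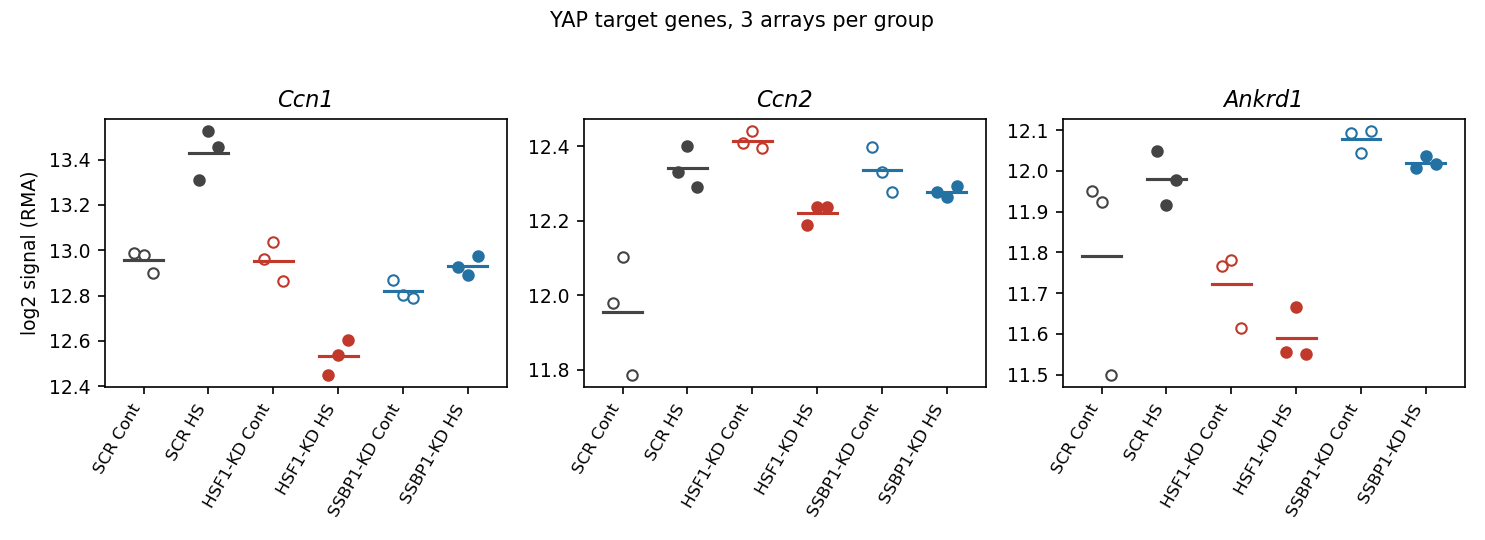
log2 signal (vertical axis) of Ccn1, Ccn2 and Ankrd1 on each of the 18 arrays, by group (horizontal axis); open points are 37 °C arrays, filled points heated arrays and lines group means. Heated HSF1-KD arrays lie lowest for Ccn1 (12.45 to 12.61), SCR Cont arrays lie lowest for Ccn2 (11.79 to 12.10), and SCR Cont replicate 3 of Ankrd1 stands at 11.50; each panel has its own scale.

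Lats1 and Lats2, the kinases that phosphorylate YAP, were higher on heated arrays in all 3 kinds of cell, though not past the test in each. Lats1 read 10.89 to 11.02 in SCR Cont and 11.14 to 11.20 in SCR HS, 10.92 to 11.12 and 11.28 to 11.35 in HSF1-KD cells, and 11.01 to 11.23 and 11.21 to 11.28 in SSBP1-KD cells. The heated arrays lay above the unheated ones in SCR and HSF1-KD cells and overlapped in SSBP1-KD cells. Lats1 rose by 0.22 ± 0.06 in SCR cells (adjusted p = 0.0242) and 0.28 ± 0.06 in HSF1-KD cells (0.00536), and was 0.13 ± 0.06 higher after heat in SSBP1-KD cells (0.249). The SCR call was lost without SCR Cont replicate 2 or 3 (adjusted p = 0.0748 and 0.0946) or SCR HS replicate 1 or 3 (0.0788 and 0.0637).

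Lats2 read 10.38 to 10.54 in SCR Cont and 10.60 to 10.74 in SCR HS, 10.43 to 10.55 and 10.66 to 10.69 in HSF1-KD cells, and 10.48 to 10.52 and 10.58 to 10.68 in SSBP1-KD cells. The heated and unheated arrays did not overlap in any of the 3. It rose by 0.20 ± 0.05 in SCR cells (adjusted p = 0.0132) and 0.20 ± 0.05 in HSF1-KD cells (0.0133), and was 0.12 ± 0.05 higher in SSBP1-KD cells (0.178). The SCR call was lost without SCR Cont replicate 1 or 3 (adjusted p = 0.0672 and 0.0508) or SCR HS replicate 2 (0.0717), and the HSF1-KD call without HSF1-KD Cont replicate 3 (0.0605). Neither kinase passed in any comparison of a knockdown with SCR cells in the main fit. At 37 °C Lats1 was 0.17 higher in SSBP1-KD than in SCR cells (adjusted p = 0.065), and this difference passed in 7 of 16 alternative settings. Without SSBP1-KD Cont replicate 1 it was 0.22 (0.0228). After heat shock Lats1 was 0.16 higher in HSF1-KD than in SCR cells (0.11), which passed in 2 of 16 settings, array weights (0.035) and the methods' t-test (0.0498).

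Yap1, the coactivator restrained by the kinases and angiomotins, rose with heat in all 3 kinds of cell. It read 10.62, 10.57 and 10.50 in SCR Cont and 10.84, 10.74 and 10.80 in SCR HS. HSF1-KD cells gave 10.51, 10.52 and 10.45, then 10.88, 10.79 and 10.82. SSBP1-KD cells gave 10.72, 10.77 and 10.75, then 11.01, 10.93 and 10.98. Heated arrays never overlapped unheated arrays of the same cells. The rises were 0.23 ± 0.04 (adjusted p = 0.00229), 0.34 ± 0.04 (0.000117) and 0.23 ± 0.04 (0.00467). The SSBP1-KD call was lost with the compared arrays alone (adjusted p = 0.102). In the methods' t-test the SCR and SSBP1-KD calls were lost (0.0625 and 0.0809). The differences of these responses from that in SCR cells were 0.11 (95% interval -0.03 to 0.24) in HSF1-KD and -0.00 (-0.13 to 0.13) in SSBP1-KD cells. Yap1 was 0.19 ± 0.04 higher in SSBP1-KD than in SCR cells at 37 °C (0.00586) and 0.19 ± 0.04 higher after heat shock (0.00601). The 37 °C call was lost with the compared arrays alone (adjusted p = 0.0799), and both calls in the methods' t-test (0.0608 and 0.05002).

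Tead1, the DNA-binding partner of YAP, read 11.81, 11.89 and 11.84 in SCR Cont and 11.98, 12.04 and 11.98 in SCR HS. HSF1-KD cells gave 11.47, 11.48 and 11.48, then 11.69, 11.67 and 11.67. SSBP1-KD cells gave 11.66, 11.76 and 11.78, then 11.81, 11.79 and 11.92. Heated SCR arrays were the highest 3, and HSF1-KD Cont arrays the lowest 3. Tead1 was lower in HSF1-KD than in SCR cells at 37 °C (-0.37 ± 0.05, 0.773-fold, adjusted p = 5.75e-05) and after heat shock (-0.33 ± 0.05, 0.000112). In SSBP1-KD cells the differences were -0.12 (0.0792) and -0.17 ± 0.05 (0.0148).

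With heat Tead1 rose by 0.16 ± 0.05 in SCR cells (adjusted p = 0.0291) and 0.20 ± 0.05 in HSF1-KD cells (0.00593), and was 0.11 ± 0.05 higher in SSBP1-KD cells (0.178). Its less bright probe set gave 0.24 (0.000395), 0.31 (6.55e-05) and 0.16 (0.0168), so the probe sets disagree on the last call. The SCR call of the brighter probe set was lost without SCR Cont replicate 1 or 3 (0.115 and 0.0744) or SCR HS replicate 2 or 3 (0.117 and 0.0596). The call between SSBP1-KD and SCR cells after heat shock was lost when SSBP1-KD HS replicate 1 or 2 (0.0605 and 0.0679) was left out, or replicate 2 of the heated SCR cells (0.0696).

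**Figure D4:**
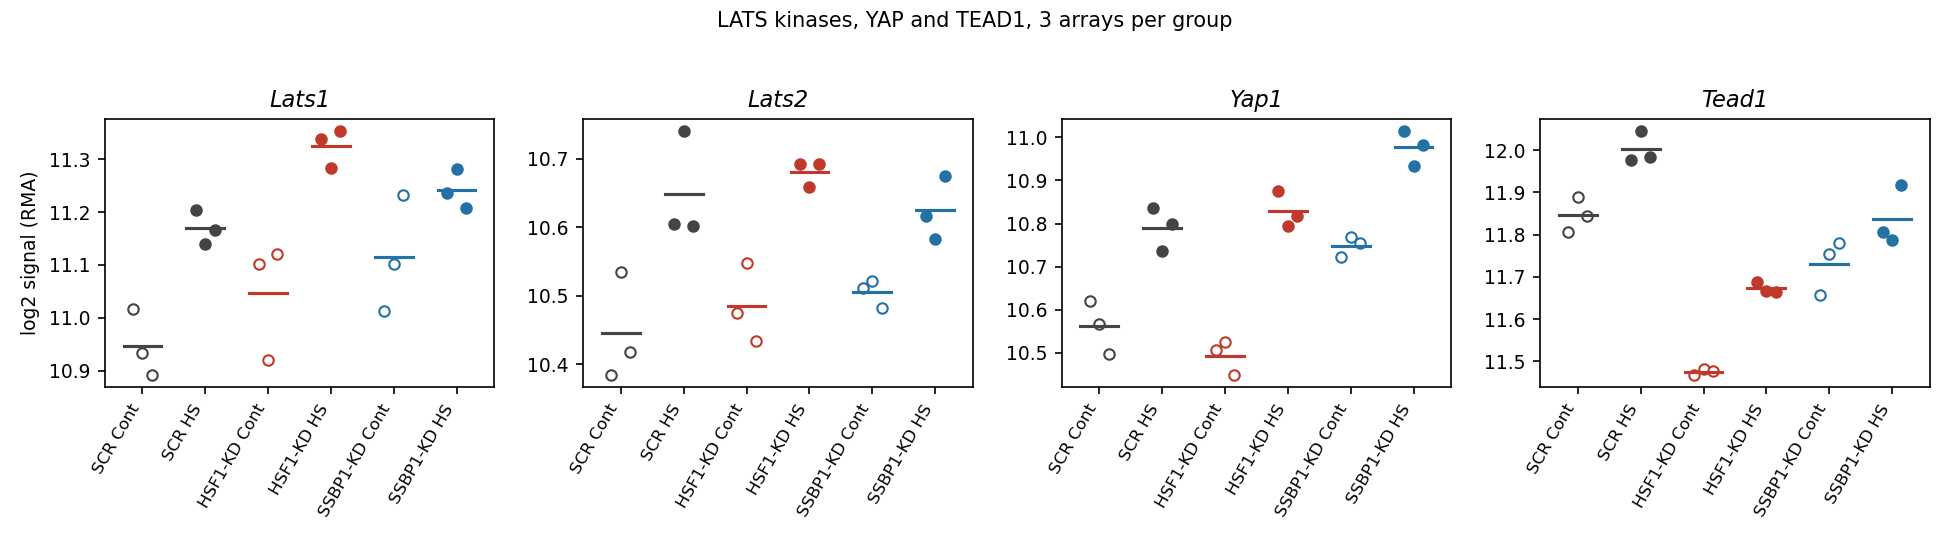
log2 signal (vertical axis) of Lats1, Lats2, Yap1 and Tead1 on each of the 18 arrays, by group (horizontal axis); open points are 37 °C arrays, filled points heated arrays and lines group means. Heated arrays lie above unheated arrays of the same cells for Yap1, Lats2 and Tead1 in all 3 kinds of cell, and HSF1-KD Cont is lowest for Tead1 (11.47 to 11.48); each panel has its own scale.

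Between knockdown and SCR cells at 37 °C, 1 of 9 genes was higher in HSF1-KD cells (Ccn2) and 2 lower (Amotl1 and Tead1), beside 10.9% and 10.1% of all symbols. In SSBP1-KD cells 3 were higher (Ccn2, Ankrd1 and Yap1) and 1 lower (Amot), beside 14.6% and 16.5%. After heat shock none was higher in HSF1-KD cells and 4 were lower (Amotl1, Ankrd1, Ccn1 and Tead1), beside 13.1% and 10.7%. In SSBP1-KD cells 1 was higher (Yap1) and 2 lower (Ccn1 and Tead1), beside 14.3% and 14.4%. These comparisons share the SCR arrays. The medians of the 9 differences were -0.06, 0.06, -0.12 and -0.03 (log2) in the same order, beside 0.03, 0.05, 0.03 and 0.03 over all symbols. Markers of fibroblasts moved with the knockdowns, with 7 of 10 lower in each of these 4 comparisons and a mean over the list of 10.9 to 11.0 in the 6 SCR arrays, 10.6 to 10.7 in HSF1-KD and 10.4 to 10.6 in SSBP1-KD arrays. In SSBP1-KD cells 1 of the 10 was higher at either temperature. Of the 3 blood cell markers, 2 were higher in HSF1-KD and 1 in SSBP1-KD cells at either temperature. Of 4 endothelial markers 1 was higher in each knockdown at 37 °C, and 2 in HSF1-KD and 1 in SSBP1-KD cells after heat shock. Of 6 epithelial markers 1 was higher and 1 lower in HSF1-KD and 1 lower in SSBP1-KD cells at 37 °C, and 2 were lower in heated SSBP1-KD cells, while 1 of 4 muscle markers was higher in heated HSF1-KD cells. The part of these markers in the results was not tested.

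The rest of the pathway was read from 5 lists, which overlap. Wwc1 and Ptpn14 are in both the kinase and the target list, and Ajuba is in both the cofactor and the target list. Among 18 measured genes of the Hippo kinase cascade and its activators, 4 rose with heat in SCR cells and none fell, 11 rose and 1 fell in HSF1-KD cells, and 3 rose in SSBP1-KD cells (list medians 0.10, 0.20 and 0.11). Beside them stand 7.63%, 10.6% and 4.08% of all symbols that rose and 8.34%, 10.8% and 2.82% that fell. The 4 in SCR cells became 2 without SCR Cont replicate 2 or 3 or any heated SCR array, and the 3 in SSBP1-KD cells became 1 without SSBP1-KD HS replicate 3. The fall in HSF1-KD cells was lost without HSF1-KD Cont replicate 2 or any heated array. Sav1, the scaffold of the cascade, rose by 0.23 and 0.29 in SCR and HSF1-KD cells, and Map4k4, a kinase upstream of LATS, by 0.18 in SCR and 0.18 in SSBP1-KD cells. Taok1 is among the counted rises in SCR and HSF1-KD cells. Averaged over its probe sets it stood at 0.06 and 0.23 there and lost both calls (adjusted p = 0.732 and 0.0513). Against SCR cells at 37 °C, 1 was higher and 3 lower in HSF1-KD, and 5 higher and 3 lower in SSBP1-KD cells. After heat shock the counts were 4 and 3, and 3 and 3. The shares of all symbols were 10.9% higher and 10.1% lower, and 14.6% and 16.5%, at 37 °C, and 13.1% and 10.7%, and 14.3% and 14.4%, after heat. The 5 became 3 when SSBP1-KD Cont replicate 2 or 3, or replicate 1 or 3 of SCR Cont, was left out, and the 4 became 2 without SCR HS replicate 2 or HSF1-KD HS replicate 1 or 2. Fat4, a giant cadherin at the head of the pathway, was lower by 1.02 and 0.73 at 37 °C in HSF1-KD and SSBP1-KD cells (differences -1.02 and -0.73, adjusted p = 5.12e-06 and 5.23e-05). Stk4 (MST1), which phosphorylates LATS, was 0.24 and 0.36 higher, and 0.52 and 0.46 higher after heat shock. In HSF1-KD Cont its call was lost with the compared arrays alone (adjusted p = 0.0686) and in the methods' t-test (0.12). Dchs1, the ligand of Fat4, was lower in SSBP1-KD cells (difference -0.49 at 37 °C and -0.61 after heat).

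Of 12 YAP cofactors and TEAD partners, 5, 7 and 3 rose with heat in SCR, HSF1-KD and SSBP1-KD cells, and 1 fell in HSF1-KD cells, beside 7.63%, 10.6% and 4.08% of all symbols that rose and 10.8% that fell. The 5 became 3 when SCR HS replicate 2, or replicate 2 or 3 of SCR Cont, was left out. The 3 became 1 without SSBP1-KD Cont replicate 1 or 2 or SSBP1-KD HS replicate 1, and 0 without SSBP1-KD HS replicate 3, and the fall was lost without HSF1-KD Cont replicate 2 or HSF1-KD HS replicate 3. Wwtr1, which encodes the YAP paralogue TAZ, rose by 0.31 in SCR cells (adjusted p = 0.00172) and by 0.34 in HSF1-KD cells. After heat it was lower in SSBP1-KD than in SCR cells (difference -0.33, adjusted p = 0.000618). Tead4 was higher in both knockdowns, by 0.26 and 0.45 at 37 °C and 0.42 and 0.64 after heat, in contrast to the lower signals of Tead1. In HSF1-KD Cont its call passed in 11 of 16 alternative settings and was lost without SCR Cont replicate 1 or 3 (adjusted p = 0.0598 and 0.0802) or HSF1-KD Cont replicate 2 (0.0889). At 37 °C 2 of the 12 were higher and 1 lower in HSF1-KD cells, and 4 and 4 in SSBP1-KD cells. In heated cells the counts were 3 and 2, and 5 and 4. Beside them stand 10.9% and 10.1%, and 14.6% and 16.5%, of all symbols at 37 °C, and 13.1% and 10.7%, and 14.3% and 14.4%, after heat. The 2 higher in HSF1-KD Cont became 0 without SCR Cont replicate 1 or 3 or HSF1-KD Cont replicate 2 and 1 without any other array compared, and the 4 higher in SSBP1-KD Cont became 2 without SCR Cont replicate 1 or 3. After heat shock the 2 became 1 without HSF1-KD HS replicate 3, and the 5 became 2 without SCR HS replicate 3 and 3 without SSBP1-KD HS replicate 1 or 2.

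Among 15 partners of angiomotin at junctions and in its turnover, 5, 4 and 3 rose with heat in SCR, HSF1-KD and SSBP1-KD cells, and 1 fell in SCR cells, beside 7.63%, 10.6% and 4.08% of all symbols that rose and 8.34% that fell. With SCR HS replicate 2 or 3, or replicate 1 or 2 of SCR Cont, left out, the 5 became 3. The 3 became 1 without SSBP1-KD Cont replicate 1 or SSBP1-KD HS replicate 1, and 0 without SSBP1-KD HS replicate 3. Mpp5 (Pals1), a scaffold of the apical junction complex, rose in all 3, by 0.31, 0.21 and 0.21. The second call was lost without HSF1-KD Cont replicate 3 (adjusted p = 0.0558) or HSF1-KD HS replicate 2 (0.0533), and the third without SSBP1-KD Cont replicate 1 or 3 (0.0702 and 0.0545) or SSBP1-KD HS replicate 1 or 3 (0.074 and 0.0729). With array weights the third was 0.13 (0.0712). Lin7c, another scaffold, rose by 0.22 in SCR and 0.32 in HSF1-KD cells. Against SCR cells at 37 °C 1 was higher and 3 lower in HSF1-KD, and 1 and 5 in SSBP1-KD cells. In heated cells they were 2 and 5, and 1 and 4. Over all symbols the shares were 10.9% and 10.1%, and 14.6% and 16.5%, at 37 °C, and 13.1% and 10.7%, and 14.3% and 14.4%, after heat. Leaving out 1 array gave 1 to 3 lower in HSF1-KD and 3 to 5 lower in SSBP1-KD cells at 37 °C, with the fewest lower without HSF1-KD Cont replicate 2 or 3, and when SSBP1-KD Cont replicate 1, or replicate 3 of SCR Cont, was left out. The 1 higher in SSBP1-KD Cont became 2 without SSBP1-KD Cont replicate 1 and 0 without any other array compared. After heat it gave 1 to 2 higher and 2 to 6 lower in HSF1-KD cells, with 2 lower without HSF1-KD HS replicate 1 or replicate 2 or 3 of SCR HS, 3 lower without HSF1-KD HS replicate 2 or 3, and 1 higher without SCR HS replicate 1 or any HSF1-KD HS array. In heated SSBP1-KD cells 2 were higher without SCR HS replicate 1. Rnf146, the ubiquitin ligase that with tankyrases marks angiomotins for destruction, was lower in heated HSF1-KD cells (difference -0.43, adjusted p = 0.000715). Mpdz, a binding partner at tight junctions, was lower in SSBP1-KD cells (difference -0.31 at 37 °C and -0.37 after heat).

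Of 23 YAP and TAZ target genes other than the 10, 4 rose and 2 fell with heat in SCR cells, 6 rose and 5 fell in HSF1-KD cells, and 6 rose in SSBP1-KD cells. The rises in SSBP1-KD cells include Wwc1 and Ajuba, already counted there in the kinase and cofactor lists. Over all symbols 7.63% rose and 8.34% fell, 10.6% and 10.8%, and 4.08% and 2.82%, so that the 2 falls in SCR cells are a share near that of all symbols. Without any 1 of the 6 SCR arrays those 2 became 0 or 1. The 5 falls became 3 without HSF1-KD Cont replicate 2 or HSF1-KD HS replicate 1 or 3. The 6 rises in SSBP1-KD cells became 1 without SSBP1-KD HS replicate 1, 2 without SSBP1-KD Cont replicate 1 or SSBP1-KD HS replicate 3, and 3 without SSBP1-KD Cont replicate 3 or SSBP1-KD HS replicate 2. The 4 that rose in SCR cells were Gadd45b (0.62, adjusted p = 7.31e-07) and Gadd45a (0.48), which act in growth arrest after stress, Dlc1 (0.47) and F3 (0.41, adjusted p = 3.03e-05), tissue factor. Averaged over its probe sets, Dlc1 stood at 0.27 in SCR cells (adjusted p = 0.000501). The same averaging ended its calls in HSF1-KD (0.05, adjusted p = 0.511) and SSBP1-KD cells (0.06, 0.483), where it is among the counted rises. As for Ccn1 and Ccn2, the heat responses of F3 and Gadd45b were lower in HSF1-KD than in SCR cells, by -0.41 ± 0.07 (adjusted p = 0.0097) and -0.35 ± 0.07 (0.0411), and no gene of the list had a higher one. These are 2 of 23, beside 0.336% of all symbols with a lower and 0.01% with a higher heat response. The Gadd45b call was lost without any of 11 of the 12 arrays (adjusted p = 0.105, 0.0991 and 0.108 without SCR Cont replicates 1, 2 and 3, 0.0683, 0.111 and 0.129 without SCR HS replicates 1, 2 and 3, 0.0569, 0.131 and 0.0979 without HSF1-KD Cont replicates 1, 2 and 3, 0.0695 and 0.0797 without HSF1-KD HS replicates 1 and 3). It was also lost in the replicate block (0.0888), and the F3 call with the compared arrays alone (0.0551). The median of the list's 23 differences was -0.09, beside 0.00 over all symbols.

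Against SCR cells at 37 °C, 4 of the 23 targets were higher and 4 lower in HSF1-KD, and 2 and 8 in SSBP1-KD cells. After heat shock the counts were 4 and 8, and 4 and 7. The shares of all symbols were 10.9% and 10.1%, and 14.6% and 16.5%, at 37 °C, and 13.1% and 10.7%, and 14.3% and 14.4%, after heat. The 8 lower in SSBP1-KD Cont became 5 without SCR Cont replicate 1 and 4 without SCR Cont replicate 3, and the 2 higher became 1 when SSBP1-KD Cont replicate 2, or replicate 3 of SCR Cont, was left out. The largest differences were lower signals of Igfbp3, which binds insulin-like growth factors (-1.09 in HSF1-KD and -1.03 in SSBP1-KD at 37 °C), and Ccdc80, a matrix protein (-0.63 and -1.43). Rbms3, an RNA-binding protein, stood at -0.57 and -0.60, and Tgfb2, a growth factor, at -0.53 and -0.46.

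Genes of SRF, MRTF and the actin cytoskeleton were called lower in HSF1-KD and higher in SSBP1-KD cells more often than the reverse. Of 17 measured genes, 1 was higher and 9 lower in HSF1-KD than in SCR cells at 37 °C, and none higher and 9 lower after heat shock. In SSBP1-KD cells 8 were higher and 2 lower at 37 °C, and 10 higher and none lower after heat shock. Over all symbols 10.9% were higher and 10.1% lower, then 13.1% and 10.7%, in HSF1-KD cells, and 14.6% and 16.5%, then 14.3% and 14.4%, in SSBP1-KD cells. Without SCR Cont replicate 3, the 8 became 5 and the 1 higher in HSF1-KD Cont became 0, as it did without HSF1-KD Cont replicate 2. The 2 lower in SSBP1-KD Cont became 1 without any array compared, and 1 was higher in heated HSF1-KD cells without SCR HS replicate 1. Acta2, smooth muscle actin, stood at -0.51 and -0.42 in HSF1-KD and at 0.71 and 0.83 in SSBP1-KD cells (37 °C, then heat). Tagln, an actin-bundling protein, was at -0.38 in HSF1-KD and 0.52 in SSBP1-KD cells at 37 °C, and Vcl, which links actin to adhesions, was at -0.49 in HSF1-KD cells. The list medians were -0.16 and -0.16 in HSF1-KD and 0.12 and 0.19 in SSBP1-KD cells. Srf itself rose with heat in all 3 kinds of cell, by 0.42, 0.34 and 0.34, while 1, 2 and 3 genes of the list rose in SCR, HSF1-KD and SSBP1-KD cells and 2, 4 and none fell, beside 7.63%, 10.6% and 4.08% of all symbols that rose and 8.34%, 10.8% and 2.82% that fell. The 2 that fell in SCR cells became 1 without any SCR array but SCR HS replicate 1, and the 1 that rose became 2 without SCR Cont replicate 1.

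**Figure D5:**
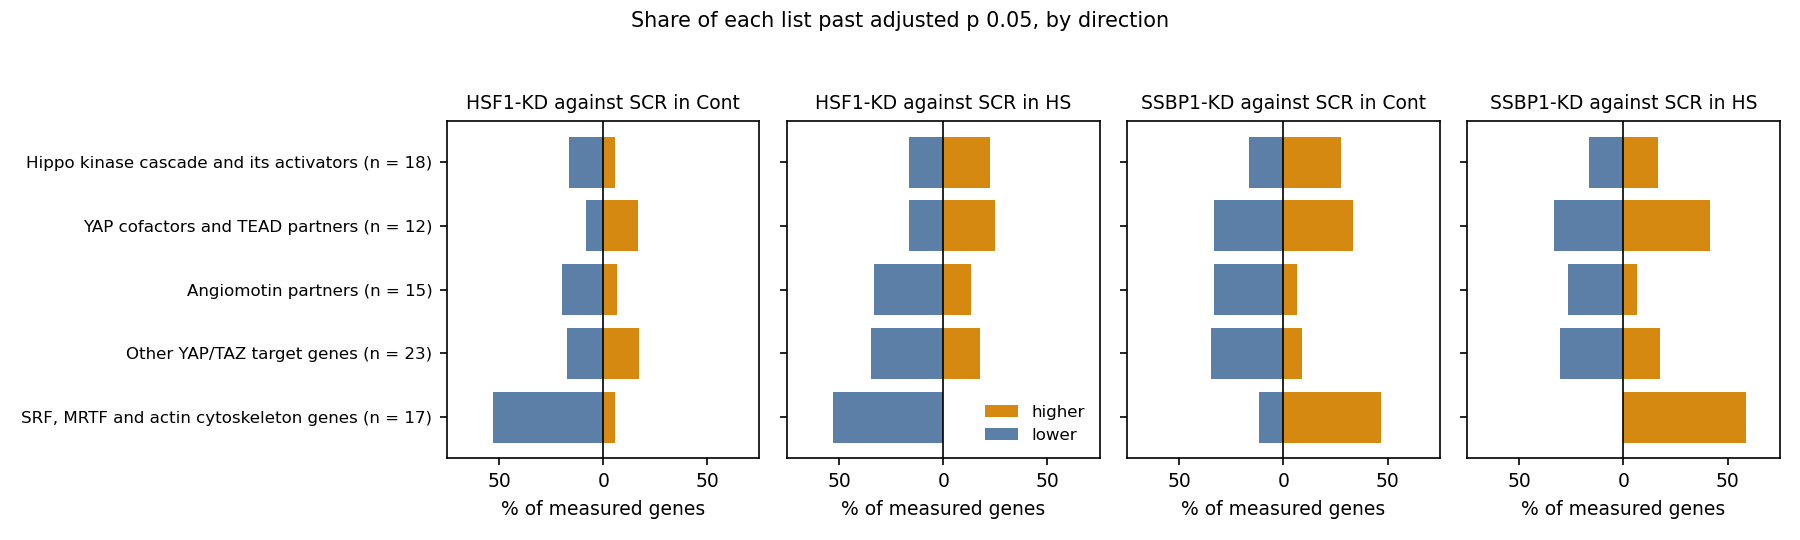
Share of the measured genes of 5 lists (horizontal axis, percent; higher to the right, lower to the left) past adjusted p 0.05 in each knockdown against SCR cells, at 37 °C and after heat shock. In the SRF, MRTF and actin list 9 of 17 genes were lower in heated HSF1-KD cells and 10 of 17 higher in heated SSBP1-KD cells. Over all symbols, not drawn, 10.7% were lower and 14.3% higher in the same comparisons.

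Among 9607 gene symbols above the median signal, those whose log2 signals followed Amotl2 most closely over the 18 arrays were Itprid2 (Pearson r = 0.962), Edn1 (0.958), Sin3b (0.949), Cebpb (0.948), Bag3 (0.947) and Fkbp4 (0.945). The heat effect of Edn1, which encodes endothelin, was 0.80 in SCR, -0.07 in HSF1-KD and 0.57 in SSBP1-KD cells, and that of Bag3, an HSP70 co-chaperone, was 1.92, 0.00 and 0.78. For Ccn1 the closest were Id1 (0.888), Plekhf1 (0.888) and Sapcd2 (0.885), for Ccn2 Plau (0.810), Mars1 (0.716) and Galr3 (0.715), and for Ankrd1 Myc (0.913), Setd1b (0.882) and Ppp6r1 (0.879). The arrays fall into 6 groups, so these values mostly describe likeness of group means, and they are given as a description.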

How the data were processed

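For each of 18 arrays (Affymetrix Mouse Gene 1.0 ST, 3 per group), MEF cell mRNA was read from 200 ng of total RNA. The authors deposited log2 signals normalized by RMA in Partek 6.5, per the labels, for 35557 probe sets; RMA gives the arrays a common distribution, so a shift of all genes together cannot be seen. Of these probe sets 21789 have 1 symbol, 1621 several and 12147 none. All were fitted with 1 mean per group in limma 3.58.1 (R 4.3.3), and a difference was called where its Benjamini-Hochberg adjusted p, taken over every probe set, was under 0.05. Symbols (19938) were read from their brightest probe set. No pair of arrays held identical values, and the lowest correlation within a group was 0.985.

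The genes and lists were chosen with earlier results of these data known. Named list genes were the up to 4 with the largest difference per list and comparison among those called. Lists were described by counts and medians. The code was tested on simulated data. Alternatives changed scaling, filter, probe sets, arrays fitted, prior, weights, replicate block and test, and left out each array in turn. No depth applies to arrays, and their number limits the precision.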

Additional observations from a re-analysis of the deposited data

Results flagged for a closer look

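The heat response of 4 genes differed between HSF1-KD and SCR cells by the test of the difference itself (limma, 6 heated and 6 unheated arrays), and that of 1 of them also differed between SSBP1-KD and SCR cells. Ccn1 and Ccn2 were 2 of the 9 genes besides Amotl2, F3 and Gadd45b were 2 of the 23 listed targets, and the other lists held none. Over all symbols 0.336% had a lower and 0.01% a higher heat response in HSF1-KD cells. In SSBP1-KD cells the shares were 0.311% and 0.181%. Ccn1 differed by -0.90 (log2, HSF1-KD minus SCR) and Ccn2 by -0.58. Both stood higher on every heated than on every unheated SCR array, and lower on every heated than on every unheated HSF1-KD array. F3 differed by -0.41 and Gadd45b by -0.35 in the same direction. The Gadd45b call was lost in 15 of 22 alternative settings and that of F3 in 2 (compared arrays alone, adjusted p = 0.0551, and the methods' t-test, 0.0789). For Ccn2 the SSBP1-KD minus SCR difference was -0.44, a call that was lost in 15 of 22 alternative settings. What lies behind these differences was not tested.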

How the results depend on the processing

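Of 1429 recomputed differences of the 10 genes, 1327 kept their side of the threshold, 81 lost a call and 21 gained one. None that was called in either fit reversed. For the named list genes these numbers were 1946, 210, 0 and 0 of 2156. A change of sign was not counted where neither fit called the difference. Some small differences did change sign, such as Ccn1 in HSF1-KD against SCR at 37 °C (-0.003, highest alternative 0.042). The counts of called genes changed by over 1.5 times in the following settings, and the cause was not tested. In the methods' t-test after adjustment, the count was 1 for heat in SCR cells (Ccn1), 0 for heat in SSBP1-KD cells, 1 for HSF1-KD and 0 for SSBP1-KD against SCR at 37 °C, 1 for SSBP1-KD against SCR after heat shock, 1 for the HSF1-KD and 0 for the SSBP1-KD heat response difference. At unadjusted p under 0.05 the same test gave 6, 6, 3, 4, 3, 2 and 3, of 9 genes each, or 10 for heat in SSBP1-KD cells. The share of all symbols at that threshold was not recorded, so these unadjusted counts cannot be set against a background. The study's threshold for heat-inducible genes also asked for a fold change above 1.5, which these counts did not apply. Besides Amotl2, the largest heat effect in SCR cells was 1.39-fold (Ccn1). In SSBP1-KD cells the largest was 1.27-fold (Amotl2), so none of these rises reached that fold. With only the compared arrays fitted, the counts were 0 for heat in SSBP1-KD cells, 1 for SSBP1-KD against SCR at 37 °C, and 0 for the SSBP1-KD response difference. That last count, 1 as reported (Ccn2), was also 0 with equal array medians and with the replicate block, and 2 (Ccn1 and Ccn2) with probe sets above the median signal only, a trended and robust prior, or array weights. Leaving out 1 array at a time gave 3 to 5 genes for heat in SCR cells, 4 to 5 in HSF1-KD and 2 to 3 in SSBP1-KD cells, and 0 to 1 for the SSBP1-KD response difference. The replicate numbers showed no clear pairing of the arrays. Of 45 same-number pairs of deviations, 6 correlated above 0.1 (range -0.28 to 0.17), and 6 of 18 arrays were closest to their own number. Such correlations cannot exclude a weaker pairing. The replicate block also ended the call of Amot for heat in SSBP1-KD cells (adjusted p = 0.0658) and, among the named list genes, of Gadd45b for the HSF1-KD response difference (0.0888), Ajuba for heat in SSBP1-KD cells (0.0636) and Wtip for HSF1-KD against SCR at 37 °C (0.0502).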
